A study of Homo sapiens with 6 samples.

Results

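Transcripts of 5 genes of the epithelial-mesenchymal transition (EMT) were followed across 3 human ovarian cancer cell lines: the transcription factors SNAI1, SNAI2 and TWIST2 and the cytoskeletal genes VIM and TAGLN. They were taken by symbol from the annotation of the array's probe sets, which gave 7 probe sets for the 5 genes, 3 of them for VIM, out of 14884 named genes. All 6 arrays of the study were used. Each of ES-2, SKOV-3 and OVCAR-3 was measured once after transfection with miR-blank, described as the control, and once after miR-135a-3p, described as the target. Where 3 values are given by line, ES-2 comes before OVCAR-3 and SKOV-3 is the last. No other agent, allele or time is named for any group in the sources used here. Each line is an established culture that was labelled ovarian cancer, and nothing says that its 2 arrays came from separate cultures, so p-values measure the spread between these arrays.

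In EMT, epithelial cells lose their junctions and keratin network and take on a motile shape with a vimentin filament network and contractile actin bundles. The zinc finger proteins Snail (SNAI1) and Slug (SNAI2) bind E-box sequences and repress E-cadherin and other junction genes, and the basic helix-loop-helix factor TWIST2 acts in the same programme. Vimentin (VIM) is the intermediate filament of mesenchymal cells, and transgelin (TAGLN, also called SM22) is an actin-binding protein whose gene responds to serum response factor (SRF) and to TGF-beta. Ovarian cancer lines are known to lie at different points between the epithelial and the mesenchymal state.

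The transfected arm is shown with the other arms of the miR-135a hairpins because a microRNA pairs with its targets mainly through its seed. Capitals mark the seed, bases 2 to 8, and the sequences are those of RefSeq for GRCh38.p14. The arm miR-135a-3p lies in MIR135A1 at chr3:52294232-52294253 on the minus strand.
hsa-miR-135a-3p: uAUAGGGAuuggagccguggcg
hsa-miR-135a-5p: uAUGGCUUuuuauuccuauguga
hsa-miR-135a-2-3p: aUGUAGGGauggaagccaugaa
Each of the 3 arms has a seed of its own: AUAGGGA for miR-135a-3p, AUGGCUU for miR-135a-5p and UGUAGGG for miR-135a-2-3p, the corresponding arm of MIR135A2.

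The deposited values were normalised log2 signals, so a step of 1 is a 2-fold change, and a transfection difference is the miR-135a-3p signal minus the miR-blank signal. Array medians lay between 4.16 and 4.23. The files hold no detection calls, so a signal near the median was not shown to be above background, and signals of different probe sets were not set against each other. The hairpin gene MIR135A1, the check of the transfection, was higher after miR-135a-3p by at least 9.52 in every line (limma adjusted p 4.83e-05). Over the 8620 genes tested, with a mean of at least 5, the differences had an SD of 0.48 in SKOV-3 and 0.30 in each of the other lines. All 5 EMT genes passed that filter. TAGLN, with a mean of 5.09, passed through its SKOV-3 signals, since it read 5.0 or less in the other lines. Of 10 ovarian carcinoma markers 9 were named on the array. PAX8 read 8.80 and 8.12 in SKOV-3 (miR-blank first) but 4.12 to 4.80 in the other lines. WT1 read 6.14 and 7.15 in SKOV-3 and 5.59 to 5.95 in the other lines. MSLN read 5.62 and 7.02 in SKOV-3 and 5.19 to 5.53 in the other lines. The keratin KRT18 read 9.36 to 10.47 on every array, KRT8 5.29 to 6.75 and SOX17 4.69 to 5.52. KRT7 read 6.75 and 6.37 in ES-2, 3.82 and 4.85 in OVCAR-3, and 6.40 and 4.87 in SKOV-3. The epithelial marker EPCAM read 3.78 to 4.32 on every array, near the array medians, and EMX2 was also near them. In bulk RNA, fewer cells expressing a gene and less of its RNA per cell cannot be told apart.

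VIM, SNAI2 and TWIST2 set OVCAR-3 apart from the other lines. Slug transcripts were 61.6-fold higher in ES-2 and 25.9-fold higher in SKOV-3 than in OVCAR-3, vimentin 44.5-fold and 23.5-fold, and TWIST2 3.36-fold and 4.56-fold. SNAI1 and TAGLN had another order, in which ES-2 was the lowest line. The lines were compared with limma over all 8620 genes with the transfection as a block. A call needed a 2-fold difference or more, with an adjusted p below 0.05.

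SNAI2 read 10.66 and 10.87 in ES-2, where the first value of each pair is that of miR-blank and the second that of miR-135a-3p. It read 4.94 and 4.70 in OVCAR-3, and 8.47 and 10.57 in SKOV-3. Both OVCAR-3 arrays were thus the lowest, and the arrays of ES-2 and SKOV-3 did not overlap, though the SKOV-3 miR-135a-3p array came close to ES-2. The OVCAR-3 signals ranked at percentiles 63.0 and 58.7 of all probe sets and were not shown to be above background. The sizes of the SNAI2 folds against that line are therefore uncertain. ES-2 exceeded OVCAR-3 by 5.95 (95% interval 4.71 to 7.19, adjusted p 0.000398) and SKOV-3 exceeded OVCAR-3 by 4.70 (3.46 to 5.94, adjusted p 0.00138). The difference of 1.25 between ES-2 and SKOV-3 was not called (0.00832 to 2.49, adjusted p 0.135). It was 2.31 and called without the SKOV-3 miR-135a-3p array, and 0.19 and not called without the SKOV-3 miR-blank array.

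TWIST2 read 5.95 and 6.17 in ES-2, 4.45 and 4.18 in OVCAR-3, and 5.70 and 7.31 in SKOV-3. The OVCAR-3 signals lay near the array median, so the folds against that line are uncertain, and the arrays of ES-2 fell between those of SKOV-3. ES-2 exceeded OVCAR-3 by 1.75 (0.75 to 2.75, adjusted p 0.0226) and SKOV-3 exceeded it by 2.19 (1.19 to 3.19, adjusted p 0.0112). Both calls were lost without the OVCAR-3 miR-135a-3p array (1.16 and 1.6), and the first also without the ES-2 miR-blank array (1.52). ES-2 minus SKOV-3 was −0.44 (−1.44 to 0.56, adjusted p 0.495), with 0.38 without the SKOV-3 miR-135a-3p array and −1.26, then called, without the SKOV-3 miR-blank array.

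SNAI1 read 6.09 and 4.87 in ES-2, 6.63 and 6.30 in OVCAR-3, and 7.15 and 6.67 in SKOV-3. No arrays of different lines overlapped, and ES-2, the line with the highest SNAI2 signal, had the lowest SNAI1 signal. ES-2 was lower than SKOV-3 by a log2 difference of −1.43 (−2.02 to −0.84, adjusted p 0.00965), a call that was lost without the ES-2 miR-135a-3p array (−1.02). The difference of −0.98 from OVCAR-3 had an adjusted p of 0.0271 but was under 2-fold, and was −1.39 and called without the ES-2 miR-blank array and −0.57 without the ES-2 miR-135a-3p array. SKOV-3 and OVCAR-3 were neighbours that did not differ beyond their spread (0.45, −0.14 to 1.04, adjusted p 0.232).

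VIM has 3 probe sets, and the brightest stands for the gene. It read 10.73 and 10.85 in ES-2, 5.08 and 5.54 in OVCAR-3, and 9.60 and 10.13 in SKOV-3. OVCAR-3 was far below the other lines on every array. ES-2 exceeded OVCAR-3 by 5.48 (5.05 to 5.91, adjusted p 1.88e-05) and SKOV-3 exceeded it by 4.55 (4.12 to 4.98, adjusted p 4.40e-05). ES-2 exceeded SKOV-3 by 0.92 (0.49 to 1.35, adjusted p 0.0144), just under 2-fold and therefore not called. It was 1.11 and called without the ES-2 miR-135a-3p array and 1.04 and called without the SKOV-3 miR-135a-3p array. The other probe sets read 2.66 and 2.68, and 3.86 and 3.64, in OVCAR-3, all below the array median. They gave 6.37 and 6.65 for ES-2 minus OVCAR-3 and 0.30 and 0.48 for ES-2 minus SKOV-3. Vimentin was thus far lower in OVCAR-3 on all 3 probe sets, while the gap between ES-2 and SKOV-3 depended on the probe set.

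TAGLN read 4.34 and 3.85 in ES-2, 4.53 and 5.0 in OVCAR-3, and 5.78 and 7.06 in SKOV-3. The SKOV-3 arrays were the highest, and the ES-2 arrays ranked at percentiles 52.5 and 42.9 of all probe sets, where a signal was not shown to be above background. Since TAGLN passed the filter through SKOV-3, its higher signal there is a description and the sizes are uncertain. ES-2 minus SKOV-3 was −2.32 (−3.25 to −1.40, adjusted p 0.00833). SKOV-3 minus OVCAR-3 was 1.65 (0.73 to 2.58, adjusted p 0.0234), a call that was lost without either OVCAR-3 array (1.62 and 1.69). ES-2 minus OVCAR-3 was −0.67 (−1.60 to 0.25, adjusted p 0.245), with −1.36 and a call without the ES-2 miR-blank array and 0.0131 without the ES-2 miR-135a-3p array. ES-2, with the highest vimentin signal, thus had the lowest transgelin signal.

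**Figure D1:**
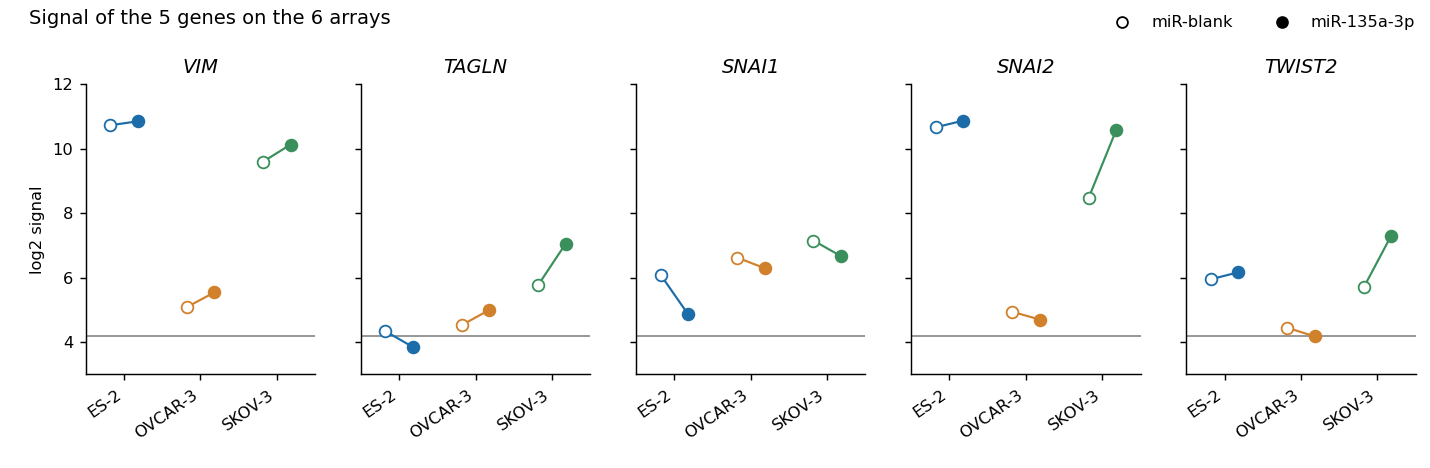
Log2 signal (y axis) of VIM, TAGLN, SNAI1, SNAI2 and TWIST2 on the 6 arrays, with the line on the x axis, open points for miR-blank, filled points for miR-135a-3p and a grey band for the range of the array medians (4.16 to 4.23). VIM, SNAI2 and TWIST2 are lowest in OVCAR-3, SNAI1 and TAGLN are lowest in ES-2, and the widest gap within a line is that of SNAI2 in SKOV-3, 8.47 against 10.57. Heights can be compared within a gene only.

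Against OVCAR-3, ES-2 had 3 of the 5 genes called higher and 0 lower, where 16.5% of all genes tested were called (8.65% higher, 7.82% lower). SKOV-3 had 4 of the 5 called higher and 0 lower against OVCAR-3, where 14.6% of all genes were called (8.96% higher, 5.60% lower). Against SKOV-3, ES-2 had 0 of the 5 called higher and 2 lower, where 12.1% of all genes were called (4.85% higher, 7.29% lower). A call above OVCAR-3 in both other lines, as held by VIM, SNAI2 and TWIST2, was made for 405 of 8620 genes, 4.70%. At an unadjusted limma p under 0.05, the counts of higher and lower genes were 3 and 1 for ES-2 minus OVCAR-3, 4 and 0 for SKOV-3 minus OVCAR-3, and 2 and 2 for ES-2 minus SKOV-3. The share of all genes at that unadjusted threshold is not given here, so the unadjusted counts cannot be judged against it. TAGLN, called against both other lines, was tested only because its SKOV-3 signals are high, so its call adds nothing to these counts. These comparisons share arrays, and the genes were chosen with earlier results of these data known.

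**Figure D2:**
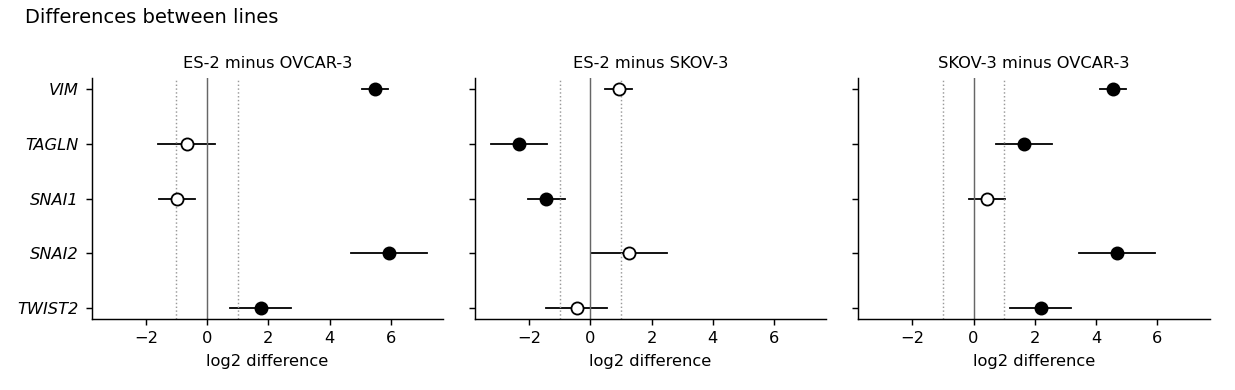
Log2 differences between lines (x axis) for the 5 genes, with 95% limma intervals as bars; filled points were called (2-fold or more, adjusted p below 0.05), and dotted lines mark 2-fold. VIM and SNAI2 exceed OVCAR-3 by 4.55 to 5.95 in ES-2 and SKOV-3, while ES-2 minus SKOV-3 is −2.32 for TAGLN and −1.43 for SNAI1.

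The promoters of VIM and TWIST2, 2 of the genes with their lowest signal in OVCAR-3, are shown because Snail and Twist proteins bind E-boxes. They are the RefSeq windows of GRCh38.p14, 250 bases that end just before the gene start. Windows of 2 of the 5 genes were searched. SNAI1 and TAGLN had no window in the source used, and SNAI2 was left out of this search by choice. The search thus says nothing of SNAI1, SNAI2 and TAGLN. The VIM window is chr10:17227991-17228240 and the TWIST2 window chr2:238847835-238848084, both on the plus strand, and capitals mark the GC box GGGCGG or its reverse complement CCGCCC.
VIM: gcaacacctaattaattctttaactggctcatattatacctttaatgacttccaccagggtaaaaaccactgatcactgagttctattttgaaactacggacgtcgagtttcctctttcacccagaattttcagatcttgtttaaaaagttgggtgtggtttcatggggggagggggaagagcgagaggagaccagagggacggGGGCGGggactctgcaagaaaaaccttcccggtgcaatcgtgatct
TWIST2: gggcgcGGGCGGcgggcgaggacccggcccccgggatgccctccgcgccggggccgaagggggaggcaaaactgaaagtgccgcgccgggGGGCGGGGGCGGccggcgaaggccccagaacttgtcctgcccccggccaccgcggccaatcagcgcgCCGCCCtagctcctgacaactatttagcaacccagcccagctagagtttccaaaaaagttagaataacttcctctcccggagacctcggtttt
Neither window holds the E-box letters CANNTG, which contain CACCTG and CAGGTG, on either strand. CANNTG occurs in 57.8% of 15843 protein-coding promoters of this length and CACCTG in 17.1%. Neither holds a CArG box, the sequence bound by SRF, which 1.1% of these promoters hold. The GC box occurs once in VIM, 46 bases before the start, and 4 times in TWIST2, where GGGCGG begins 244, 160 and 154 bases and CCGCCC 93 bases before the start. It occurs in 56.0% of the promoters. The TWIST2 window is richer in G and C (68.4%) than the VIM window (46.0%), where the median promoter has 62.4%. A match is a description of letters and not evidence of binding.

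After miR-135a-3p, SNAI2, TWIST2 and TAGLN were higher in SKOV-3, by 4.29-fold, 3.05-fold and 2.44-fold. In ES-2 and OVCAR-3 the same genes differed by at most 1.41-fold, with signs that varied. SNAI1 was lower in all 3 lines, and VIM was higher in all 3 on its brightest probe set but not on every probe set. This comparison asks which transcripts the arrays show at other levels with the microRNA than with the control, and the 3 lines are its replicates. limma with the line as a block called 0 of the 5 genes and 1 of 8620 genes, 0.0116%, which was the hairpin gene MIR135A1 itself. At an unadjusted p under 0.05 limma had 2 of the 5 genes, VIM and SNAI1, and 251 of 8620 genes. With 1 array per line and transfection, a difference within a line, or between the responses of lines, has no test.

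SNAI2 differed by 0.21 in ES-2 and −0.24 in OVCAR-3 but by 2.10 in SKOV-3. With miR-135a-3p, the Slug signal of SKOV-3 lay just below that of ES-2. The SKOV-3 difference was the 24th highest of the 8620 differences of that line. The mean was 0.69 ± 1.24 (SD, n = 3; 95% interval −0.32 to 1.70, limma adjusted p 0.999) and −0.0173 without SKOV-3.

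TWIST2 differed by 0.21 in ES-2 and −0.27 in OVCAR-3 but by 1.61 in SKOV-3, the 52nd highest difference of SKOV-3. Its signs by line were those of SNAI2. The mean was 0.52 ± 0.97 (SD, n = 3; −0.30 to 1.33, limma adjusted p 0.999) and −0.0276 without SKOV-3.

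TAGLN differed by −0.49 in ES-2, by 0.47 in OVCAR-3 and by 1.28 in SKOV-3, the 97th highest difference there. ES-2 went the other way, at a signal near the array median. The mean was 0.42 ± 0.89 (SD, n = 3; −0.33 to 1.18, limma adjusted p 0.999) and −0.0113 without SKOV-3. The 3 means therefore rested on SKOV-3, where 202 genes, 2.34%, were at least 2-fold higher, against 0.162% in ES-2 and 0.290% in OVCAR-3.

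SNAI1 differed by −1.23 in ES-2, 2.34-fold lower, and by −0.33 in OVCAR-3 and by −0.48 in SKOV-3. The ES-2 difference was the 30th lowest of that line, where 44 genes, 0.510%, were at least 2-fold lower. The mean was −0.68 ± 0.48 (SD, n = 3; −1.16 to −0.20, limma adjusted p 0.999) and −0.41 without ES-2. A lower signal in all 3 lines was seen for 13.4% of the genes tested. SNAI1 and SNAI2 had opposite signs in ES-2 and SKOV-3 and the same sign in OVCAR-3.

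VIM differed by 0.12, 0.46 and 0.53 by line on its brightest probe set. The mean was 0.37 ± 0.22 (SD, n = 3; 0.0194 to 0.72, limma adjusted p 0.999). The other probe sets gave means of 0.098 and 0.0119, over 1.5 times smaller. One had 0.06, 0.02 and 0.22, and the other 0.00386, −0.21 and 0.24, so in OVCAR-3 the direction differed between probe sets. A higher signal in all 3 lines was seen for 9.54% of the genes tested.

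**Figure D3:**
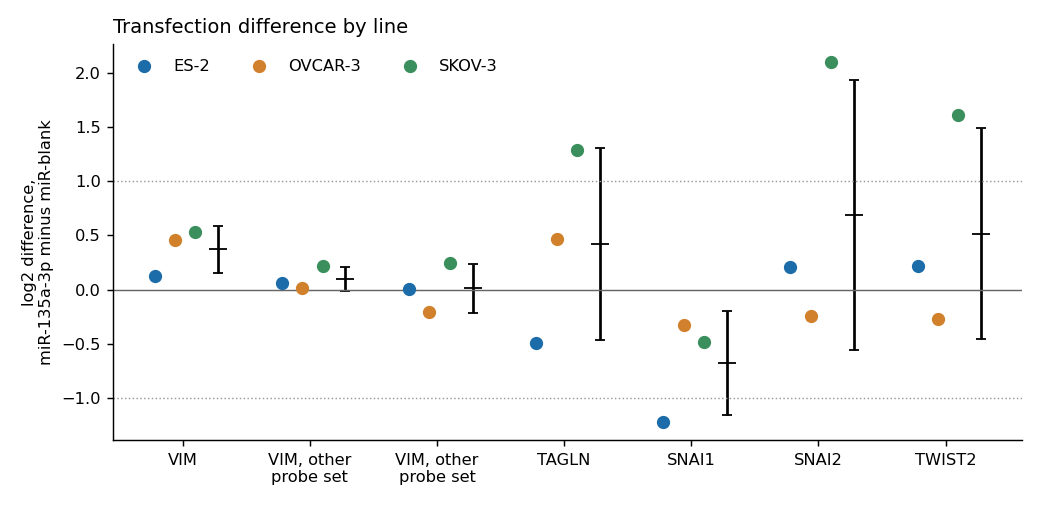
Log2 difference, miR-135a-3p minus miR-blank (y axis), for the probe set that stands for each gene and the other probe sets of VIM, with a point per line, the mean ± SD of the 3 lines as black bars and dotted lines at 2-fold. SNAI2, TWIST2 and TAGLN pass 2-fold in SKOV-3 only, SNAI1 passes it in ES-2 only, and the points of VIM stay within 0.53 of 0.

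Markers of other cell types also differed in SKOV-3. Of 6 leukocyte markers 4 were named, and their summed log2 signal was 19.97 to 23.69 after miR-blank and 20.10 to 23.68 after miR-135a-3p. CD68, a lysosomal protein of macrophages and other cells, read 7.96 and 10.20 in SKOV-3, 10.40 and 10.15 in ES-2 and 7.68 and 7.29 in OVCAR-3. TYROBP, an adaptor of myeloid cells, read 5.17 and 5.87 in SKOV-3 and 4.97 to 5.44 in the other lines. CD14 and LAPTM5 read 3.40 to 4.27 on all arrays. Of 6 fibroblast markers 2 were named, with sums of 4.75 to 7.95 and of 4.85 to 6.17. DCN read 1.89 to 2.21 on every array, and LUM read 6.05 and 2.84 in SKOV-3. The endothelial sums (5 of 6 named) were 24.49 to 24.58 and 23.69 to 25.34, and the mesothelial sums (4 of 4) 16.57 to 20.08 and 17.05 to 18.78. Marker signals near or below the array median were not shown to be above background. The part of other cells in the SKOV-3 differences was not tested.

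The other genes of the pathway were taken from 7 lists with 168 genes, of which 112 had a named probe set and 95 passed the filter. limma called 0 of the 95 genes for the transfection, with 4 at an unadjusted p under 0.05. The tested genes named from these lists had a limma adjusted p of 0.999 or higher for it, and their values describe these arrays. The median of the mean difference over all genes tested was −0.00972, and in SKOV-3 the median difference was 0.0191, with 4498 of 8620 genes higher and 4121 lower.

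Other EMT transcription factors gave 9 tested genes of 16 listed. Their median differences by line were −0.17, −0.08 and 0.43, and 7 of 9 were higher in SKOV-3, against 4498 of 8620 genes. The chromatin protein HMGA2 had −0.22, 0.34 and 0.86 by line, and the homeobox factor GSC 0.12, 0.06 and 0.66. ZEB1, a zinc finger repressor of E-cadherin, had 0.19, 0.00 and 0.49, and the E-protein TCF4, a partner of Twist proteins, −0.40, −0.69 and −0.21. TWIST1, the close relative of TWIST2, was not tested and read 3.43 to 4.53. Against OVCAR-3, ES-2 had higher PRRX1, TCF4 and HMGA2 (1.92, 1.88 and 1.80) and lower SOX4 and SOX9 (−3.03 and −1.28). PRRX1 and TCF4 passed the filter through their ES-2 signals, so their higher signals there are a description.

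Partners and regulators of Snail and Twist proteins, among them ubiquitin ligases, kinases and corepressors, gave 20 tested genes of 30 listed. None differed by 2-fold within a line, and the median differences by line were 0.10, −0.12 and 0.11. The kinase PRKD1 had −0.15, 0.47 and −0.86 by line. FBXL14, a ubiquitin ligase subunit that targets Snail, had 0.56, −0.19 and 0.14. COPS2, a COP9 signalosome subunit, and the arginine methyltransferase PRMT5 had 0.48 and 0.52 in SKOV-3. LOXL2, a lysyl oxidase that interacts with Snail, was lower in OVCAR-3 (6.54) than in ES-2 (9.49, difference 2.95, limma adjusted p 0.000131) and SKOV-3 (9.55, difference 3.02, limma adjusted p 0.000181). Its order of lines was thus near that of VIM and SNAI2.

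Of the actin and SRF target genes, 16 of 27 were tested. TGFB1I1 (Hic-5), a focal adhesion protein, had 0.24, 0.69 and 1.2 by line, the largest mean of the list (0.71 ± 0.48, SD, n = 3). FHL2, an SRF target, had 0.02, 0.60 and 0.55. The adhesion protein ZYX had −0.22, −1.0 and 0.05, and CNN2, a calponin related to transgelin, −0.18, −0.46 and −0.37. The list median was 0.10, −0.00771 and −0.07 by line. In SKOV-3, 1 of 16 genes was at least 2-fold higher, where 2.34% of all genes tested were. Against OVCAR-3, ES-2 had 6 genes called higher and 2 lower, and SKOV-3 also 6 higher and 2 lower. Of all genes tested, 8.65% were called higher and 7.82% lower in ES-2, and 8.96% and 5.60% in SKOV-3. TGFB1I1 read 8.86, 5.24 and 8.93 and FHL2 7.58, 4.80 and 6.97 on average by line. TAGLN3, a paralog of TAGLN, had its highest signal in ES-2 (7.77, against 4.63 in SKOV-3 and 4.50 in OVCAR-3), the line with the lowest TAGLN signal. TAGLN3 passed the filter through ES-2, so its higher signal there is a description. The SRF coactivator MRTFB was called lower than in OVCAR-3 in both ES-2 (−2.30) and SKOV-3 (−1.31). The SKOV-3 call was lost without the SKOV-3 miR-135a-3p array (−0.97) and without either OVCAR-3 array (−1.41 and −1.21). Without either OVCAR-3 array, fewer of the 16 genes were called between SKOV-3 and OVCAR-3, as were fewer of all genes tested.

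The list of other intermediate filament and linker genes holds lamins and plectin but not the keratins and desmoplakin, which are among the epithelial genes. Its 8 tested genes differed between lines by 0.83 at most, where vimentin differed by up to 5.48. Of 11 listed genes 8 were tested, and limma called 0 of these 8 in each pair of lines. At an unadjusted p under 0.05, limma had 2 for ES-2 minus OVCAR-3, 1 for ES-2 minus SKOV-3 and 4 for SKOV-3 minus OVCAR-3, and 0 for the transfection. For the pairs of lines, the share of all genes at that threshold is not given here. No gene of the 8 differed 2-fold after transfection in any line. Plectin, PLEC, which links vimentin to other structures, had 0.26, −0.16 and 0.53, and the neuronal filament gene PRPH 0.42, 0.73 and −0.53 by line.

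Mesenchymal surface and matrix genes gave 7 tested genes of 23 listed. In ES-2, 6 of them were called higher than in OVCAR-3, where 8.65% of all genes were, and 5 higher than in SKOV-3, where 4.85% were. CD44, a hyaluronan receptor, read 8.06, 2.92 and 7.16 on average by line, an order shared with VIM. FN1, LOX and TNC, for fibronectin, a collagen cross-linking enzyme and tenascin, were highest in ES-2 (line means 11.27, 10.90 and 9.51), with line means of 6.30 or less in the other lines. TNC passed the filter through its ES-2 signals, so its calls add nothing to the counts for ES-2. After transfection fibronectin had 2.22 in OVCAR-3, and the surface glycoprotein THY1 had −1.13 in ES-2. The list median in SKOV-3 was 0.14, and 0 of 7 genes passed 2-fold there. Of all genes tested, 2.34% were at least 2-fold higher in SKOV-3 and 1.66% at least 2-fold lower.

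Epithelial genes, many of them known as targets of repression in EMT, gave 18 tested genes of 34 listed. Their median differences by line were 0.12, 0.04 and −0.44. In SKOV-3 12 of 18 were lower, against 4121 of 8620 genes, and 4 of 18 were at least 2-fold lower, where 1.66% of all genes tested were. Of these 4, CDS1 and CLDN1 passed the filter through their SKOV-3 signals, so the counts are a description. The 4 genes were the lipid enzyme CDS1 (7.36 and 5.59), the keratin KRT7 (6.40 and 4.87), the claudin CLDN1 (10.13 and 8.74) and the junction scaffold TJP3 (5.28 and 4.14). No epithelial gene was 2-fold higher in SKOV-3. The polarity scaffold PATJ had −0.64, 0.06 and −0.56, and MARVELD2, a protein of tricellular junctions, had −0.87 in OVCAR-3.

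ES-2 had 8 epithelial genes called lower and 1 higher against OVCAR-3, where 7.82% of all genes tested were lower and 8.65% higher. The lower ones included occludin, OCLN (−3.48), and CLDN7 (−4.04). The higher one was KRT7, which passed the filter through ES-2, while TJP3 and LLGL2, among the lower ones, passed it through OVCAR-3. Named epithelial genes that were not tested, EPCAM, ESRP1 and GRHL2 among them, read 3.16 to 5.84 in OVCAR-3. SKOV-3 had 4 called higher and 5 lower against OVCAR-3, where 8.96% of all genes tested were higher and 5.60% lower. All 4 higher ones passed the filter through SKOV-3. The desmosomal protein DSP (9.64) and CLDN1 (9.44) had line means above those of OVCAR-3 (3.82 and 3.56) and passed the filter through SKOV-3, while CLDN7 (−4.10), the junction scaffold TJP1 (−2.07) and plakoglobin, JUP (−1.87), were lower. Fewer epithelial genes were called between ES-2 and OVCAR-3 without the OVCAR-3 miR-blank array, and the share of all genes in that fit is not given here.

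EMT input signals gave 17 tested genes of 27 listed, 14 of which were lower in SKOV-3 after miR-135a-3p, against 4121 of 8620 genes, with a median of −0.34. The exception past 2-fold was JAG1, a ligand of Notch receptors, at 6.10 and 8.18 in SKOV-3, with −0.46 in OVCAR-3 and a difference near 0 in ES-2. The TGF-beta mediator SMAD3 had −0.18, −0.59 and −0.64, the receptor FGFR1 −0.06, −0.49 and −0.57, and SKIL, an inhibitor of SMAD signalling, −0.32, −0.11 and −0.38. Between lines, the receptors MET (10.02, 3.66 and 9.77 by line) and EGFR (9.73, 4.55 and 9.0) were low in OVCAR-3, like VIM and SNAI2. FGFR2, a receptor with an epithelial splice form, was highest in OVCAR-3 at 7.87, and SMAD7 in SKOV-3 at 6.69. FGFR2 and SMAD7 each passed the filter through the line where it was highest.

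**Figure D4:**
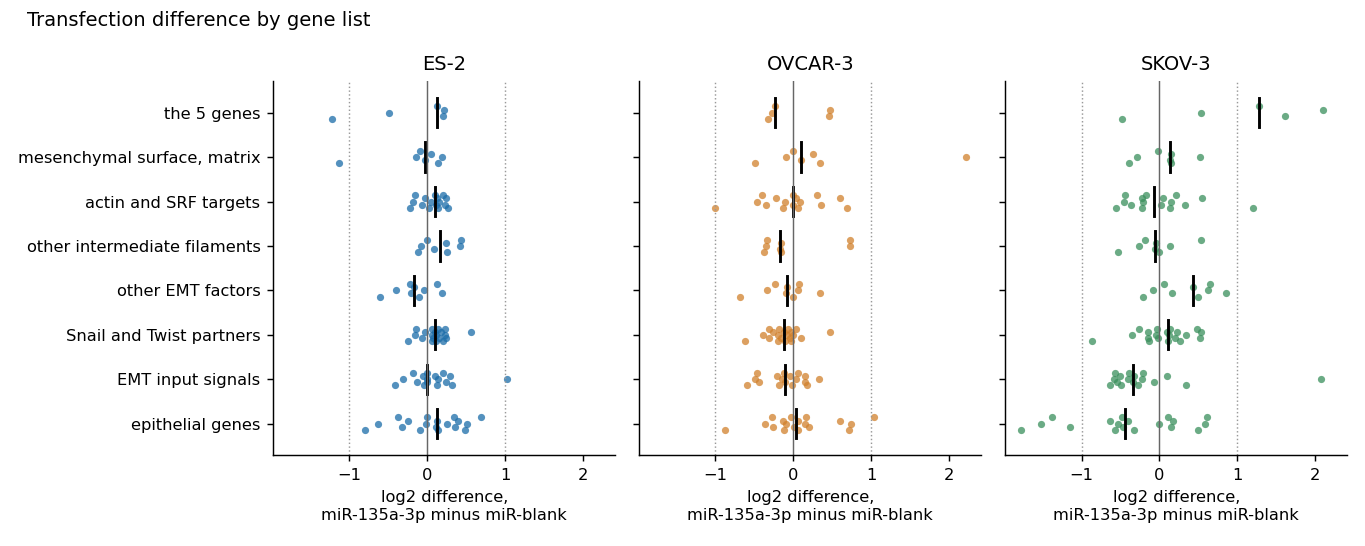
Log2 difference, miR-135a-3p minus miR-blank (x axis), for each tested gene of the lists in each line, with black ticks at the list medians and dotted lines at 2-fold. In SKOV-3 the 5 genes have a median of 1.28, which is the value of TAGLN, and the epithelial genes of −0.44. Each of these 2 sets holds genes that passed the filter through SKOV-3. In ES-2 and OVCAR-3 all list medians lie between −0.24 and 0.17.

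Genes whose pattern was most like each EMT gene were found among 7935 protein-coding genes by the root mean square (RMS) difference of centred log2 signals over the 6 arrays. The 6 arrays come as 3 pairs from lines that lie far apart, so likeness mostly reflects the order of the lines. For VIM the nearest were CD44 (RMS 0.16), the aminopeptidase ANPEP (0.29) and EGFR (0.35). For SNAI2 they were ANPEP (0.28), the neuron navigator NAV3 (0.31) and VIM itself (0.53). In SKOV-3 the transfection difference was 1.46 for both ANPEP and NAV3, where VIM had 0.53. TWIST2 was nearest to KDSR (0.25), PCOLCE2 (0.27) and TMEM98 (0.28), which had 0.95, 0.78 and 1.24 in SKOV-3. TAGLN was nearest to EML1 (0.29), AMDHD1 (0.29) and STOX2 (0.35). SNAI1 was nearest to ZBTB5 (0.18), CFD (0.19) and the immediate early gene IER2 (0.20). Their transfection differences by line were −0.80, 0.10 and −0.43 for ZBTB5, −0.69, 0.04 and −0.49 for CFD, and −0.57, −0.33 and −0.61 for IER2. Pearson r of these neighbours over the 6 arrays was 0.96 or higher.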

How the data were processed

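RNA was measured on 6 Affymetrix arrays, 1 per line and transfection. The deposited values are log2 signals of 53617 probe sets. Per the submitters' processing notes, the log2 values involved Transcriptome Analysis Console 3.0, Affymetrix Expression Console 1.4 and RMA, with no role or order stated; the genome build is not given in the sources used here. RMA makes array distributions equal, which would remove a shift of most genes. The log2 scale was read from the values. The number of arrays limits the precision.

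Symbols came from the platform annotation, updated by Entrez identifier through RefSeq (GRCh38.p14). Of the probe sets, 16098 had 1 symbol and 0 had several, and the other 37519 carry no name here. The probe set with the highest mean stood for a gene, and genes with a mean of at least 5 were tested. Genes of the lists without a named probe set were not analysed here.

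limma 3.58.1 in R 4.3.3 was used (lmFit, eBayes, two-sided, Benjamini-Hochberg over 8620 genes), with the line as a block for the transfection and the transfection as a block for the lines. Both arrays of a line come from that line and so form a pair, and their deviations from group means correlated at 0.90 (ES-2), 0.91 (OVCAR-3) and 0.76 (SKOV-3). On simulated data for 8620 genes, 63% of 100 genes changed 2-fold and 96% of 100 changed 4-fold by the transfection were recovered, and for ES-2 minus OVCAR-3 27% and 96%. Recovery was counted by adjusted p alone, without the 2-fold rule. The simulated transfection changes and noise were equal in every line, so these shares do not apply to a change in a single line.

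The genes and lists were chosen with earlier results of these data known. Named were the 5 genes, the 3 genes nearest to each, and of each list up to 4 genes with the largest mean transfection difference and up to 4 called between lines with the widest range of line means. Other genes named, and the GC box, were chosen after values were seen. Alternatives were the fit without block, other filters and normalizations, an intensity trend, no moderation, the mean over probe sets, each line or array left out and, added after seeing the data, the other VIM probe sets. Seed sites in transcripts were not analysed here.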

Additional observations from a re-analysis of the deposited data

Results flagged for a closer look

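Some genes had transfection differences of 1.5-fold or more with opposite signs in 2 of the lines. How far the lines differ was not tested, because a line has a single array of each kind. TJP3 had a log2 difference of 0.60 in OVCAR-3 but −1.15 in SKOV-3. LLGL2, a polarity protein, had 0.68 in ES-2 but −0.64 in SKOV-3. KRT7 had 1.03 in OVCAR-3 but −1.53 in SKOV-3, and KRT8 0.72 in OVCAR-3 and −0.80 in ES-2. PAX8 had 0.63 in ES-2, where it read near the array median, and −0.68 in SKOV-3. SNAI1, SNAI2, TWIST2, TAGLN and VIM were not among these genes.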

How the results depend on the processing

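The transfection differences of the 5 genes kept their direction and stayed without a call under every alternative that kept all lines, the fit with no replicate block included (SNAI2 0.69, SNAI1 −0.68). Leaving out 1 line gave ranges of −0.0173 to 1.15 for SNAI2, −0.0276 to 0.91 for TWIST2, −0.0113 to 0.88 for TAGLN, −0.85 to −0.41 for SNAI1 and 0.29 to 0.49 for VIM. Genes called for the transfection numbered 1 to 4 over these fits and 0 with no variance moderation. The same ranges were −0.70 to 0.0224 for CLDN1, −0.0260 to 0.35 for FBXL14, −0.0747 to 1.18 for FN1, −0.13 to 0.36 for GFAP, −0.23 to 1.04 for JAG1, −0.51 to 0.16 for PRKD1, −0.0159 to 0.29 for PRMT5, −0.0516 to 0.58 for PRPH and −0.57 to 0.0755 for THY1. The median of the mesenchymal surface and matrix list was −0.0276, 0.0837 both with no filter and at a mean of at least 6, and 0.00577 to 0.0755 with lines left out.

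Between lines, leaving out 1 array gave, for ES-2 minus OVCAR-3, −1.39 to −0.57 for SNAI1, 1.16 to 2.34 for TWIST2 and −1.36 to 0.0131 for TAGLN. For ES-2 minus SKOV-3 it gave 0.74 to 1.11 for VIM, −1.84 to −1.02 for SNAI1, 0.19 to 2.31 for SNAI2 and −1.26 to 0.38 for TWIST2. For SKOV-3 minus OVCAR-3 it gave 1.37 to 3.01 for TWIST2 and 1.0 to 2.30 for TAGLN, and 808 to 1409 genes called. The lone array of a line was assumed to vary like the others. How many of the 5 genes were then called for ES-2 minus SKOV-3 and for SKOV-3 minus OVCAR-3 depended on the array left out. At a mean of at least 6, TWIST2 and TAGLN were not tested, and 1 and 2 EMT genes were called in these contrasts. Of the 7 lists, 11 and 21 genes were called in place of 24 and 33. Fewer list genes were tested at that filter, and their number is not given here, so these counts do not share a base. The line differences of VIM and SNAI2 from OVCAR-3 stayed called under every alternative run. A signal near the array median limits what can be said of TAGLN in ES-2 and TWIST2 in OVCAR-3. The sizes of the SNAI2 folds against OVCAR-3 are also uncertain.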

Other observations

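Further genes of the lists had means under 5 and were not tested, but had 2-fold differences in SKOV-3; they were chosen after their values were seen. S100A4, a calcium-binding protein of motile cells, read 6.13 with miR-blank and 7.39 with miR-135a-3p, and 3.86 to 4.04 in the other lines. The epithelial transcription factor GRHL1 read 5.43 and 4.02, and the claudin CLDN4 5.25 and 4.23. There is no replicate check of these differences within SKOV-3.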
